A study of Mus musculus with 9 samples.

Results

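The 10 genes described here, Klf2, Klf3, Klf4, Klf5, Klf6, Klf9, Klf10, Klf11, Klf13 and Klf15, encode Krüppel-like factors and were chosen by name from the 55416 Ensembl genes of a read count table. All 10 had enough counts to be among the 14879 genes tested. RNA-Seq was performed on 9 libraries of cultured AdvSca1-SM cells, which are Sca1-expressing progenitors derived from smooth muscle that were sorted by YFP and Sca1 from aortic and carotid tissue, SM22α-Cre-YFP animals being pooled, so that the smooth muscle promoter SM22α drives the Cre that labels them. There were 3 groups of 3 libraries, and every culture received 0.1% DMSO for 72 hours. The Stem group was given vehicle only and was kept in stem cell medium, which holds 10% FBS, basic FGF and EGF. The TGF-β group was growth arrested for 24 hours and then given 5 ng/mL TGF-β1 in DMEM with 0.1% FBS, and the Both group received the same with 50 μM PFI-3, a ligand for the bromodomain of the chromatin remodeler Brg1. Medium and TGF-β1 thus differ together between Stem and the other groups and cannot be told apart, whereas TGF-β and Both differ by PFI-3. The sources give no difference in genotype between the groups.

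Krüppel-like factors bind GC-rich and CACCC sequences through zinc fingers at their C-terminus, and their N-termini recruit coactivators or corepressors, so that relatives can activate or repress overlapping sets of genes. In the vessel wall, Klf4 is known for repressing the contractile gene program of smooth muscle cells (SMCs) and for maintaining adventitial progenitors, Klf5 for SMC growth, and Klf2 for the quiescent state of endothelium under flow. Klf10 and Klf11 were first found as early genes induced by TGF-β, and Klf9 and Klf15 are targets of the glucocorticoid receptor in many cells.

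Total counts ranged from 35686291 to 37262375 in Stem, from 39453841 to 43194424 in TGF-β and from 42683050 to 47741128 in Both. Values below are normalized counts, which are counts scaled to the mean library of 41184338 by TMM. Stem replicate 2 stood apart from its group: the chi-square of the gene counts per degree of freedom was 134 and 164 against the other Stem libraries and 7.13 to 20.4 within the remaining pairs, and 1 gene without a symbol held 4.70% of its counts as against 0.364% and 0.477% in the other Stem libraries. That gene is among those in the chi-square, whose value without it was not computed. It held 0.978% to 2.32% of the counts in the TGF-β and Both libraries. Without Stem replicate 2, log2 fold changes of the 10 genes moved by at most 0.10 in Stem versus TGF-β, 0.0039 in TGF-β versus Both and 0.11 in Stem versus Both. The calls that this changed (Klf6, Klf10 and Klf11) are given with these genes below. The labels' extraction text names hepatic tissue, but each of the 5 hepatocyte markers had at most 3 counts in every library. The progenitor markers were present in Stem, where the genes Ly6a (Sca1), Cd34, Pdgfra, Scara5 and Gli1 summed to between 50477 and 58768, although Gli1 itself had at most 2 counts in a Stem library. The sum was 6373 to 6648 in TGF-β and 6805 to 7431 in Both. Most of it was Pdgfra, whose mean was 45657 among Stem, 5438 among TGF-β and 6268 among Both libraries, whereas the means of Ly6a, Cd34 and Scara5 were 941, 20.8 and 92.3 in TGF-β and 734, 13.4 and 41.3 in Both. In bulk RNA, fewer cells of a type and less RNA per cell cannot be told apart.

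Between Stem and TGF-β, which addresses the change from the progenitor to the stimulated state, 4 of the 10 genes rose (Klf2, Klf4, Klf10 and Klf13) and 3 fell (Klf3, Klf9 and Klf15). The call is edgeR's quasi-likelihood test at an adjusted p below 0.05 (Benjamini-Hochberg over all genes tested), which 75.0% of all genes passed, 37.3% higher and 37.7% lower, so that 7 of 10 is near the background. Only Klf2, Klf10 and Klf15 of the 10 also changed more than 2-fold, a rule that 25.1% of all genes met. The 3 libraries of each group did not overlap for 7 of the 10, as against 76.8% of all genes. The median log2 fold change of the 10 was 0.15 and its median size 0.52, beside 0.00 and 0.49 over all genes tested.

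**Figure D1:**
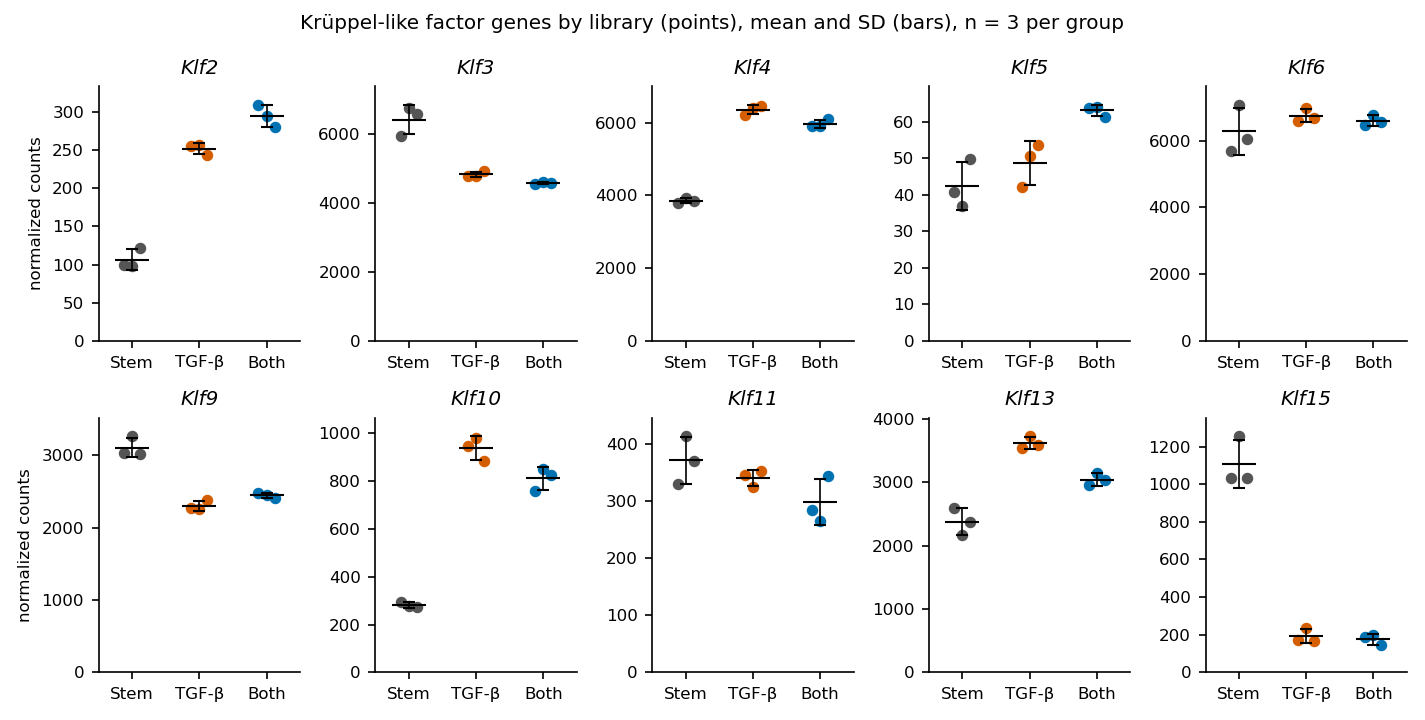
Normalized counts (vertical axes, starting at 0) of the 10 Krüppel-like factor genes in the 3 Stem, 3 TGF-β and 3 Both libraries, with points for libraries and bars for the mean and SD. Klf10 and Klf2 are lowest in Stem and Klf15 is highest there, while the Klf6 and Klf11 libraries of the groups overlap.

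Of the TGF-β–inducible pair, Klf10 (ENSMUSG00000037465), a repressor that acts in the Smad pathway, had 296, 276 and 273 normalized counts across Stem, 947, 983 and 886 in TGF-β and 759.9, 851 and 825 in Both. Every TGF-β and Both library lay above every Stem library. The log2 fold change from Stem to TGF-β was 1.74 ± 0.069 (SE, n = 3 libraries per group), a 3.33-fold rise (edgeR adjusted p = 3.2e-10). Its relative Klf11 (ENSMUSG00000020653), which carries the same kind of repression domain, had 329.8, 413 and 370.0 in Stem, 345, 325 and 351 in TGF-β and 285, 266 and 343 in Both. The Stem and TGF-β libraries overlapped, and the log2 fold change of -0.12 was not called (95% interval -0.36 to 0.11, edgeR adjusted p = 0.312). Counts of Klf10 relative to Klf11 within a library therefore moved from a mean log2 ratio of -0.39 ± 0.22 (SD, n = 3) in Stem to 1.46 ± 0.13 in TGF-β and 1.45 ± 0.21 in Both.

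Klf2 and Klf4 are close relatives that lie downstream of the ERK5-MEF2 pathway in endothelium. Klf2 (ENSMUSG00000055148) had 99.5, 97.8 and 122 normalized counts across Stem, 255, 257 and 244 in TGF-β and 309, 295 and 280.0 in Both. The 3 groups were ordered without overlap, Both being highest. From Stem to TGF-β, Klf2 rose 2.36-fold (log2 fold change 1.24 ± 0.10 SE, edgeR adjusted p = 2.95e-07). The study lists Klf4 (ENSMUSG00000003032) among stemness-related genes that fell in AdvSca1-SM cells of injured arteries. In these cultures Klf4 had 3799, 3917 and 3861 in Stem, 6215, 6419 and 6453 in TGF-β and 5915, 5909 and 6105 in Both. Here too the libraries of the 3 groups did not overlap, but TGF-β was highest. Klf4 rose 1.65-fold, with a narrow 95% interval of 0.64 to 0.80 on the log2 scale, while the surface progenitor genes Ly6a and Pdgfra fell in the same libraries, with log2 fold changes of -3.02 and -3.07. Scaling by total counts, under which the median over all genes was -0.12 (log2), left Klf4 higher in TGF-β by 0.60.

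Because Klf2 and Klf4 are also endothelial genes, the endothelial markers were read beside them. The 6 markers (Pecam1, Cdh5, Kdr, Tek, Erg and Vwf) summed to between 125 and 227 normalized counts across Stem, 1334 and 1479 in TGF-β and 1030 and 1201 in Both. Most of the sum in TGF-β and Both was Erg, a transcription factor, whose mean was 100.4 among Stem, 1346 among TGF-β and 1029 among Both libraries. Kdr had at most 2 counts in a Stem library and a mean of 26.1 in TGF-β. This is at least 8.12-fold higher than in Stem, taken against the floor of 3 counts per library. From Stem to TGF-β the means of Tek went from 45.7 to 18.3, of Vwf from 13.9 to 9.17, of Cdh5 from 1.05 to 7.80 and of Pecam1 from 7.48 to 8.80, the last 2 being too low to be tested. The 5 macrophage markers summed to 19.6 to 41.9 in Stem, 71.0 to 103 in TGF-β and 152 to 156 in Both, with Adgre1 and Itgam at 0 in every library, and most of the sum was Csf1r. The part of such cells in the Klf2 and Klf4 values was not tested.

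The widely expressed factors Klf13, Klf3 and Klf6 were among the most counted. Klf13 (ENSMUSG00000052040), a GC-box factor, had 2600.5, 2176 and 2370.3 normalized counts across Stem, 3537, 3727 and 3597 in TGF-β and 2953, 3149 and 3035 in Both, and the 3 groups did not overlap. It rose 1.52-fold from Stem to TGF-β (log2 fold change 0.60 ± 0.057 SE, edgeR adjusted p = 1.08e-06). Klf3 (ENSMUSG00000029178), a repressor that works through the corepressor CtBP, had 5934, 6747 and 6568 in Stem, 4788, 4792 and 4919 in TGF-β and 4555, 4619 and 4576 in Both. It fell by 0.41 on the log2 scale, each group lying below the one before. The exons of Klf3 overlap those of the opposite-strand gene Gm20033 over 404 bases, or 3.6% of their length, but Gm20033 had only 2 to 16 counts per library. Klf6 (ENSMUSG00000000078), an injury-responsive factor, had 5696, 7070.4 and 6062 in Stem, 6589, 6972 and 6692 in TGF-β and 6467, 6769 and 6557 in Both. Its highest value was that of Stem replicate 2, and all 3 groups overlapped. The log2 fold change of 0.11 from Stem to TGF-β was not called (95% interval -0.037 to 0.25, edgeR adjusted p = 0.161). It was called without Stem replicate 2 (0.20, adjusted p = 0.000602) and with a block for replicate number (0.11, adjusted p = 0.0404). Under total-count scaling the value was -0.011, so that no direction is given for Klf6.

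The glucocorticoid-responsive factors both fell. Klf15 (ENSMUSG00000030087), known in heart and muscle for metabolic control and for restraining profibrotic genes, had 1033, 1254 and 1034 normalized counts across Stem, 173, 234 and 167 in TGF-β and 186, 197 and 144 in Both. Stem lay above all other libraries, and TGF-β and Both overlapped. The log2 fold change of -2.53 ± 0.14 (SE, n = 3 libraries per group) is a 5.78-fold fall, the largest of the 10 (edgeR adjusted p = 5.75e-09). Klf9 (ENSMUSG00000033863), whose DNA-binding domain resembles that of Klf13, had 3035, 3261 and 3020.5 in Stem, 2272, 2255 and 2376 in TGF-β and 2477, 2458 and 2406 in Both. It fell by 0.43 on the log2 scale (SE 0.042), with TGF-β lowest and no overlap. Klf15 and Klf9 are also adipocyte genes: the 5 adipocyte markers summed to 183 to 217 in Stem, 39.9 to 44.9 in TGF-β and 38.7 to 52.7 in Both, nearly all of it Fabp4, with Cidec at 0 throughout, and their part in the result was not tested.

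Klf5 (ENSMUSG00000005148), the growth-associated factor, was the least counted of the 10, at 40.8, 36.9 and 49.8 normalized counts across Stem, 42.1, 50.7 and 53.7 in TGF-β and 63.9, 64.2 and 61.4 in Both. Stem and TGF-β overlapped and Both lay above all of them. The log2 fold change from Stem to TGF-β was 0.20 (95% interval -0.17 to 0.58, edgeR adjusted p = 0.297).

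**Figure D2:**
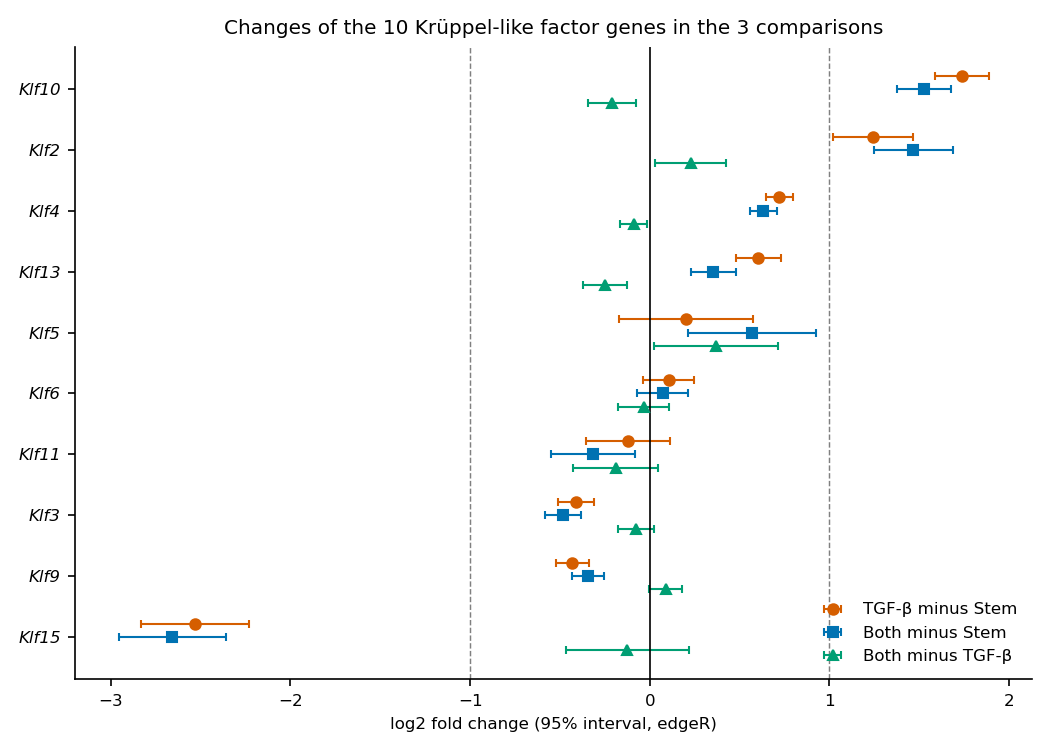
Log2 fold changes (horizontal axis) of the 10 genes with 95% intervals from edgeR, for TGF-β minus Stem (circles), Both minus Stem (squares) and Both minus TGF-β (triangles), with dashed lines at 2-fold. Klf10, Klf2 and Klf15 pass the dashed lines against Stem. Between TGF-β and Both all points and intervals lie inside the lines, the interval of Klf5 reaching farthest, to 0.71.

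The promoters of Klf2, Klf4 and Klf15 are shown because Klf2 and Klf4 rose and Klf15 fell most. The sequences are the 250 bases before the transcription start, from RefSeq on GRCm38.p6, at chr8:72318812-72319061 (+), chr4:55532476-55532725 (−) and chr6:90462326-90462575 (+), each written 5′ to 3′ on the gene's strand. Capitals mark an E-box CACGTG in Klf4 and Klf15 and a MEF2 site in Klf2.
Klf2: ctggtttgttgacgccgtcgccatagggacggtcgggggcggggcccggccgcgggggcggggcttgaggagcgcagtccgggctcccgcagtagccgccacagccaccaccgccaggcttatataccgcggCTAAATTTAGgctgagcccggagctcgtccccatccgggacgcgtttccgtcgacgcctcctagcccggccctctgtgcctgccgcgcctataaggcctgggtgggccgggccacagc
Klf4: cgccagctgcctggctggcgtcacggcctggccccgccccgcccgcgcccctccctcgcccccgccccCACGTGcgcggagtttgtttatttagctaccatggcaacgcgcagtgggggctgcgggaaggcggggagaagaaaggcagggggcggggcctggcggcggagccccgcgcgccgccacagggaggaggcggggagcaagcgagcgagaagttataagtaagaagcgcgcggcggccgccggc
Klf15: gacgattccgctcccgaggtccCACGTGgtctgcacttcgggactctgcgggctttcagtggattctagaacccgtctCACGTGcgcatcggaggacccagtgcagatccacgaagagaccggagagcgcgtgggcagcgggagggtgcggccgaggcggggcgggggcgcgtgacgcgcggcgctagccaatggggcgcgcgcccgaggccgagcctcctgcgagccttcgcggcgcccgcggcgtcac

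Windows of the same kind were found for 8 of the 10 genes, Klf5 and Klf10 not being in the table, and were searched on both strands for 7 motifs. Matches of different motifs may share end bases. The GC box GGGCGG was in 7 of the 8 windows and in 32.7% of all 32851 windows, and the CACCC sequence that the family itself binds was in 5 of 8 as against 52.0%. An E-box CACGTG was in the windows of Klf4, Klf6, Klf11 and Klf15, or 4 of 8 as against 6.02%. These genes rose (Klf4), fell (Klf15) or were not called (Klf6 and Klf11) between Stem and TGF-β. The E-boxes began 182 bases before the start in Klf4, 43 in Klf6, 214 in Klf11 and 228 and 172 in Klf15. A MEF2 site was only in Klf2 among the 8, at 118 bases, and in 2.92% of all windows. The Smad sequence CAGAC was in 2 of 8 (Klf3 and Klf15) as against 42.2%, the glucocorticoid receptor hexamer AGAACA in 0 of 8 as against 16.1%, and the CArG box in 0 of 8 as against 1.47%. The 8 windows had a GC content of 59.6% to 78.4%, above the median of 52.4% over all windows, and its part in these shares was not tested.

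Levels of different genes were compared per length, as CPM, which is a count relative to the size of its library, per kilobase of exons in GENCODE M21. In Stem the order was Klf6 (34.7 CPM per kb), Klf4 (30.7), Klf9 (15.7), Klf3 (13.9), Klf15 (9.63), Klf13 (7.68), Klf11 (2.08), Klf10 (1.64), Klf2 (1.40) and Klf5 (0.198). Only Klf10 and Klf2 were neighbours whose libraries overlapped. In TGF-β, Klf4 was first at 50.7 ± 1.0 (SD, n = 3), followed by Klf6 at 37.3, Klf13 and Klf9 at 11.7 and 11.6, Klf3 at 10.4, Klf10 at 5.45, Klf2 at 3.31, Klf11 and Klf15 at 1.90 and 1.66 and Klf5 at 0.228. Klf13 with Klf9 and Klf11 with Klf15 overlapped there. In Both, Klf4 was at 47.6, Klf6 at 36.5, Klf9 at 12.3, Klf3 and Klf13 at 9.90 and 9.82, Klf10 at 4.72, Klf2 at 3.87, Klf11 and Klf15 at 1.67 and 1.53 and Klf5 at 0.295, and Klf3 with Klf13 and Klf11 with Klf15 overlapped. Klf4 made up 25.0% to 26.9% of the summed level of the 10 in the Stem libraries, 37.4% to 38.2% in TGF-β and 36.4% to 37.8% in Both. These shares and the place of Klf4 depend on the length used: per kilobase of coding sequence, Klf4 made up 11.2% to 12.0% of Stem, 18.6% to 18.8% of TGF-β and 18.0% to 18.8% of Both, and was number 4, 2 and 3 in the order, its libraries overlapping those of Klf13 in Stem and of Klf3 in TGF-β and Both. Klf6 then had the highest mean in each group, at 163 as against 107 for Klf4 in TGF-β, although its libraries overlapped those of Klf3 in Stem. Added over the 10 genes, normalized counts were 22864 to 25249 in Stem, 25162 to 26014 in TGF-β and 23971 to 24578 in Both.

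**Figure D3:**
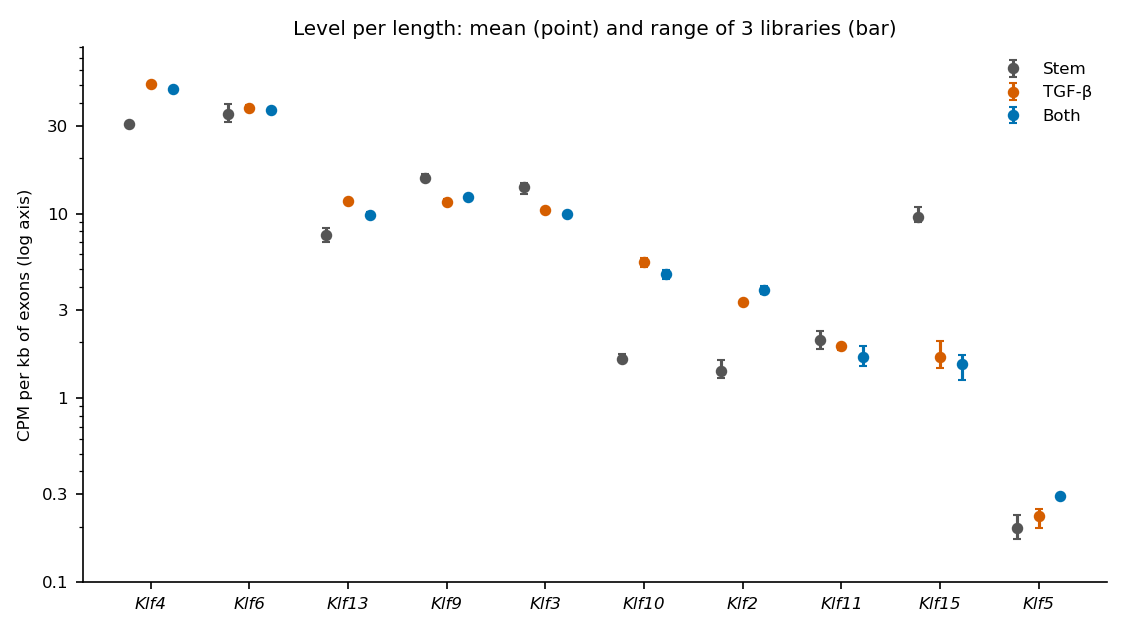
Levels of the 10 genes in CPM per kilobase of exons (vertical log axis), with points for the mean and bars for the range of the 3 Stem, TGF-β and Both libraries. Klf4 moves above Klf6 in TGF-β and Both, and Klf15 drops from 9.63 in Stem to 1.66 in TGF-β.

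Ratios of 2 relatives within the same library do not depend on how libraries were scaled. For 7 pairs fixed by relationship and 3 comparisons, 16 of the 21 two-sided exact permutation tests reached p = 0.1, the smallest that 3 against 3 libraries allow (0.131 after adjustment over the 21), so that no pair could pass 0.05. From Stem to TGF-β all 7 ratios were without overlap. The largest moves were those of Klf9 over Klf15, from a mean log2 ratio of 1.49 to 3.60, and of Klf10 over Klf11. Klf9 over Klf13 turned from 0.39 ± 0.18 (SD, n = 3) in Stem to -0.65 ± 0.065 in TGF-β and stood at -0.32 ± 0.055 in Both. Klf2 over Klf4 went from -5.18 to -4.66 and to -4.34, and was the only ratio whose value in Both lay farther from Stem than TGF-β without overlap. Klf4 over Klf5 had means of 6.50 (Stem), 7.02 (TGF-β) and 6.55 (Both), and Both overlapped Stem (exact p = 0.8). Klf3 over its relative Klf12 went from 5.49 to 4.68 and Klf6 over Klf7 from 1.54 to 2.29, and their TGF-β and Both values overlapped.

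**Figure D4:**
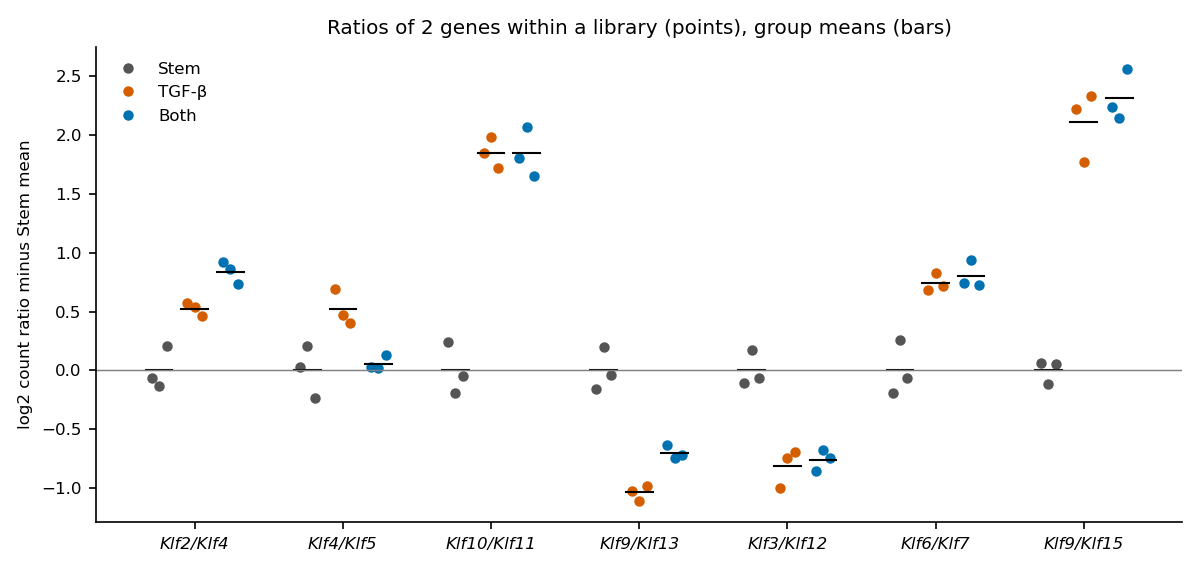
Log2 count ratios of 7 pairs of genes within each library (points), less the Stem mean of the pair (vertical axis), with bars for group means. Klf9/Klf13 and Klf4/Klf5 in Both lie between Stem and TGF-β or at Stem, and Klf2/Klf4 in Both lies beyond TGF-β.

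The comparison of TGF-β with Both asks what a ligand of the Brg1 bromodomain does in stimulated cells. Of the 10 genes Klf13 alone was called. It was lower in Both, going from 3620.4 ± 97.0 to 3046 ± 98.2 normalized counts (SD, n = 3), a log2 fold change of -0.25 ± 0.056 (SE, edgeR adjusted p = 0.0177). Of all genes 8.92% were called, 3.54% higher and 5.38% lower, so that 1 of 10 is near the background. None of the 10 passed 2-fold (0.632% of all genes did). At an unadjusted p below 0.05 there were 5 of 10, beside 24.1% of all genes, and DESeq2 also called 1. The Klf13 call was lost without TGF-β replicate 2 (adjusted p = 0.0812), TGF-β replicate 3 (0.0614), Both replicate 1 (0.0851) or Both replicate 3 (0.0637) and with total-count scaling (0.0531). In all of these its log2 fold change stayed between -0.26 and -0.23. Against Stem, where Klf13 had risen by 0.60, it was still 0.35 higher in Both.

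Klf10 lay lower in Both without overlap, with a log2 fold change of -0.21 (edgeR adjusted p = 0.0553), and was not called. It was called with a block for replicate number (0.0308), without Stem replicate 1 (0.0414) or Stem replicate 2 (0.0358) and in a fit of the 6 libraries compared (0.0341). Klf10 was not called without Stem replicate 3, any TGF-β library or any Both library. Klf4 differed by -0.09 on the log2 scale (95% interval -0.17 to -0.015, edgeR adjusted p = 0.133), against a difference of 0.72 between Stem and TGF-β. Klf2 and Klf5 had higher means in Both, by 0.23 (interval 0.032 to 0.42, adjusted p = 0.144) and 0.37 (0.022 to 0.71, adjusted p = 0.18). Klf9 and Klf3 differed by 0.09 and -0.08 (adjusted p = 0.224 and 0.346 by edgeR). For Klf6 the value was -0.03 (interval -0.18 to 0.11), for Klf11 -0.19 (-0.43 to 0.043) and for Klf15 -0.13 (-0.47 to 0.22). The libraries of TGF-β and Both did not overlap for 7 of the 10 (Klf2, Klf3, Klf4, Klf5, Klf9, Klf10 and Klf13), as against 32.7% of all genes. The median size of the log2 difference was 0.16 for the 10 and 0.11 for all genes tested.

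**Figure D5:**
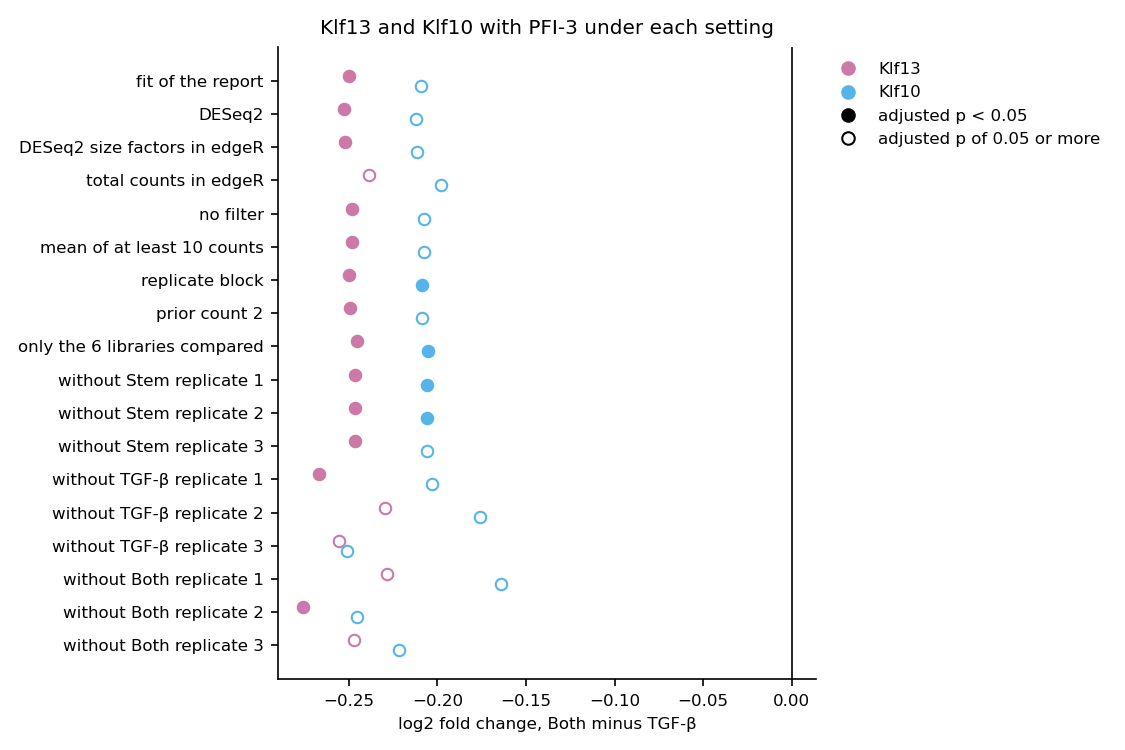
Log2 fold change from TGF-β to Both (horizontal axis) of Klf13 and Klf10 under the fit of the report and each alternative (rows), with filled points for an adjusted p below 0.05 and open points otherwise. Klf13 stays between -0.28 and -0.23 and Klf10 between -0.25 and -0.16 while their calls come and go.

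From Stem to Both, a comparison that shares its libraries with those above, 9 of the 10 were called, 5 higher and 4 lower (73.3% of all genes were called, 36.6% higher and 36.6% lower), 3 passed 2-fold (22.8% of all genes) and 8 did not overlap (74.7%). Log2 fold changes were 1.53 for Klf10, 1.47 for Klf2, 0.63 for Klf4, 0.57 for Klf5 (edgeR adjusted p = 0.00738), 0.35 for Klf13, -0.34 for Klf9, -0.49 for Klf3 and -2.66 for Klf15. Klf11 was called lower (-0.31, edgeR adjusted p = 0.0191), although its libraries overlapped, and the call was lost without Stem replicate 2 (-0.22, adjusted p = 0.0795), Both replicate 1 (0.0681) or Both replicate 2 (0.0843). Klf6 was at 0.07 (adjusted p = 0.332 by edgeR), was called without Stem replicate 2 (0.18, adjusted p = 0.00202) and was -0.033 with total-count scaling.

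Of 8 other Klf genes, 4 were tested and all 4 were called between Stem and TGF-β, where 75.0% of all genes were. Klf12 and Klf16 rose, with log2 fold changes of 0.41 and 0.71, and Klf7 fell (-0.63). Exons of Klf7 overlap those of the opposite-strand gene Gm26649 over 39.3% of their length, and without a known strand setting reads of the pair cannot be told apart. Klf8, a repressor that works through CtBP like Klf3, had at most 2 counts in a Stem library and 28.0 ± 8.7 normalized counts (SD, n = 3) in TGF-β, which is at least 8.70-fold higher against a floor of 3 counts per library, and at least 8.59-fold in Both. Of the related Sp factors, which bind the same GC boxes, 5 of 9 were tested: Sp1, Sp3 and Sp4 fell, with log2 fold changes of -0.51, -0.66 and -1.30, and Sp6 rose by 1.44 from a mean of 6.10 normalized counts, while Sp2 was at -0.01 (adjusted p = 0.928 by edgeR) and changed sign in some alternatives. With PFI-3, edgeR called 0 of the 4 Klf genes and 0 of the 5 Sp factors, beside 8.92% of all genes. At an unadjusted p below 0.05 there were 0 and 1, beside 24.1% of all genes, and DESeq2 called 0 and 0.

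Genes through which Krüppel-like factors act or are controlled were read from lists chosen for the family, and the counts from Stem to TGF-β stand beside 75.0% of all genes called, 37.3% higher and 37.7% lower, with a median size of 0.49 on the log2 scale. Of 12 corepressors and coactivators 9 fell and 1 rose between Stem and TGF-β, with a median log2 fold change of -0.19. Sin3a, the corepressor scaffold bound by Klf10 and Klf11, had a log2 fold change of -1.01 and the acetyltransferase Kat2b of -0.92, and Ctbp1, the partner of Klf3, rose by 0.17, a call lost with total-count scaling (0.05, adjusted p = 0.217 by edgeR). Of 5 ubiquitin ligases with Krüppel-like factors among their substrates 4 rose, led by Fbxw7 (0.54) and Smurf1 (0.50), and Fbxo32 fell (-0.63), with a median of 0.40. All 7 genes of the ERK5-MEF2 pathway were called, 3 higher and 4 lower (median -0.14): Mapk7, which encodes ERK5, rose by 0.61 and Mef2d by 0.38, and Mef2a and Mef2c fell (-0.50 and -0.49). Of 10 tested glucocorticoid response genes 4 rose and 6 fell, with a median of -0.77. The metallothioneins Mt2 and Mt1 rose by 3.10 and 2.73, and the phosphatase gene Dusp1 and the factor gene Cebpd fell (-2.76 and -1.34), so that the list moved in both directions.

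Read against the same 75.0% of all genes called, all 9 direct TGF-β response genes were called between Stem and TGF-β, 5 higher and 4 lower (median 1.04), although 8 were called without a filter, in a fit of the 6 libraries and without any single library other than Stem replicate 1, and Ski was nearest the threshold (-0.08, adjusted p = 0.0375 by edgeR). The list had Pmepa1 up by 2.90 and the inhibitors of differentiation Id2 and Id1 lower (-3.28 and -2.21). Of 9 SMC genes 3 rose and 4 fell (median -0.18): Tagln rose by 1.42, Myocd, the SRF coactivator, rose at least 6.18-fold, taken against the floor of 3 counts that no Stem library exceeded, and Myh11 and Mrtfa fell (-1.58 and -0.96). Of the 5 stemness genes, a list put together here with the study of these cells in view and so not independent of it, 4 fell and Gli1 rose (median -3.07). Cd34 and Scara5 were lower (-4.18 and -3.61), and Gli1 was at least 3.59-fold higher than in Stem, taken against the same floor.

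With PFI-3, the called shares of these lists stand beside 8.92% of all genes called, 3.54% higher and 5.38% lower. Among the corepressors and coactivators only Sin3a was called (0.15, adjusted p = 0.0484 by edgeR), and edgeR called 0 of the 5 ligases and 0 of the 7 ERK5-MEF2 genes, with 2 and 3 at an unadjusted p below 0.05, which 24.1% of all genes passed, and 0 by DESeq2 in both. In the glucocorticoid list 4 of 10 were called, with Dusp1 and Sgk1 higher in Both by 0.94 and 0.68 and Tsc22d3 lower (-0.37). In the TGF-β list 4 of 9 were called, 1 higher and 3 lower, the lower ones being Tgif1 (-0.22), Id1 (-0.44) and Id3 (-0.25). Of the SMC genes Acta2, Tagln and Cnn1 fell (-0.59, -0.25 and -0.63). Of the stemness genes Pdgfra rose by 0.20 and Scara5 fell (-1.18). The calls of Sin3a, Dusp1, Id1, Tagln, Pdgfra and Scara5 were each lost when single libraries were left out. With all 9 libraries, that of Sin3a was also lost by DESeq2 (adjusted p = 0.0583), with its size factors in edgeR (0.051), with total-count scaling (0.0895) and without a filter (0.0932), those of Id1 and Tagln with total-count scaling (0.0654 and 0.0733) and that of Pdgfra with DESeq2 size factors (0.0511).

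Among the genes whose pattern over the 9 libraries was most like that of Klf4, by Pearson's r of log2 CPM across libraries, were Rhbdd1, Tspan17, Vill and Msn, each with an r of 0.998 to 0.999. They rose from Stem to TGF-β by 1.51, 1.03, 3.19 and 1.32 on the log2 scale and differed by -0.20, -0.13, -0.44 and -0.18 between TGF-β and Both. Such likeness was common: 2529 of 14842 tested genes with a symbol had an r above 0.95 with Klf4. The 9 points form 3 groups, and likeness within the groups was not tested. Among the 10, Klf10 (0.99), Klf2 (0.95) and Klf13 (0.91) followed Klf4, Klf15 (-0.98), Klf9 (-0.97) and Klf3 (-0.93) ran against it, and Klf5, Klf6 and Klf11 had values of 0.61, 0.52 and -0.49.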

How the data were processed

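RNA-Seq was measured in 9 libraries, 3 per group. The authors deposited read counts per Ensembl gene, without normalization, for 55416 genes. The submitters' processing notes name HISAT2 2.2.1, SAMtools 1.13, HTSeq 0.11.3 and GRCm39, whereas the study's methods name Flexbar and STAR; which made the counts is not settled here. Libraries were ribo-depleted with a stranded kit. The strand setting of the counting and its treatment of reads that align to several genes are not given in the sources used here, so reads shared by relatives in their zinc finger region carry an uncertainty. No columns of other samples were used.

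Tests were run with edgeR 4.0.16 under R 4.3.3 (filterByExpr, TMM, glmQLFit and glmQLFTest with group as the only term, prior count 0.125) and adjusted by Benjamini-Hochberg over 14879 genes. DESeq2 1.42.0, its size factors or total counts in edgeR, no filter, a mean of at least 10 counts, a prior count of 2, the 6 libraries compared, a replicate block, TREAT and leaving out each library were the alternatives; scripts were tested on simulated data. The study's methods name DESeq2, with a 2-fold minimum beside the adjusted p of 0.05. A floor of 3 counts was 2.63 to 3.26 normalized counts, and covers counting error only. The common dispersion of 0.00376 is a coefficient of variation of 6.13%. The study describes the 3 replicates as independent; the labels do not say how, so p-values measure the spread between these cultures. Symbols were matched for 52083 of the genes, and exon lengths come from GENCODE M21 (GRCm38). Ratios used a pseudocount of 0.5.

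The members and lists were chosen with earlier results of these data known. All 10 genes and every other tested Klf and Sp gene are named; of each further list, the 2 largest rises and 2 largest falls called between Stem and TGF-β and up to 3 genes called between TGF-β and Both; and the 5 genes most like Klf4 (log2 CPM, prior count 2). Endothelial, macrophage and adipocyte markers are given in the report, and the 5 epithelial markers summed to at most 11.9 normalized counts. Results for items withheld for evaluation are not reported here.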

Additional observations from a re-analysis of the deposited data

How the results depend on the processing

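Counts against Stem were the steadiest: of the 10 genes, 7 were called between Stem and TGF-β in the fit of the report and 7 to 8 over 16 alternatives, and from Stem to Both these were 9 and 8 to 9. With PFI-3 the count was 1, but 0 with total-count scaling, 2 in a fit of only the 6 libraries compared and 0 to 2 when single libraries were left out. With a block for replicate number it was 2, Klf10 being added (edgeR adjusted p = 0.0308), and Klf6 was called between Stem and TGF-β (0.11, edgeR adjusted p = 0.0404). The block moved the PFI-3 count over all genes from 1327 to 2309. Same-numbered libraries correlated between -0.0525 and 0.442 in their deviations from group means, 5 of 9 above 0.1. The values were 0.381 to 0.442 for replicate 2, 0.0777 to 0.256 for replicate 1 and -0.0525 to 0.0728 for replicate 3. In 10 of 18 library checks, each among 3 libraries, the own number was favoured. The fit of the report leaves the number out, and whether the numbers are pairs was not tested. Over all genes the PFI-3 count was also 2310 with the 6 libraries and 639 to 2193 without single libraries, and TREAT against 2-fold called 4 genes as against 94 by the 2-fold rule. Directions turned for Klf6 with total-count scaling (-0.011 in Stem versus TGF-β and -0.033 in Stem versus Both), which moved the median of all genes to -0.12 and -0.11 and the share of higher calls from 49.7% to 41.0%; for Klf15 between TGF-β and Both (from -0.22 to 0.046 when single libraries were left out); and for Sp2 (0.000477 by DESeq2, 0.00149 without a filter, and -0.070 to 0.062 without single libraries). The cause was not tested. With PFI-3, Sin3a lost its call without Stem replicate 3 or any TGF-β or Both library (adjusted p 0.0701 to 0.165), and with every library kept under 4 alternatives (0.051 to 0.0932), Dusp1 without TGF-β replicate 2 or 3 or Both replicate 1 or 3 (0.0795 to 0.124), Id1 without Stem replicate 3, TGF-β replicate 1 or 3 or Both replicate 1 or 2 (0.0662 to 0.147), Tagln without Stem replicate 3 or any TGF-β or Both library (from 0.0558 upward), Pdgfra without Stem replicate 3, any TGF-β library or Both replicate 1 or 3 (0.068 to 0.199), and Scara5 without Stem replicate 3, any TGF-β library or Both replicate 1 or 3 (0.0551 to 0.146). Called genes of the lists ranged from 0 to 2 for the corepressors and coactivators, 0 to 1 for the ligases, 2 to 7 for the glucocorticoid, 2 to 5 for the SMC and 0 to 3 for the stemness genes. Precision was lowest where counts were few: Klf8, Gli1 and Kdr had at most 2 counts in a Stem library, and their folds are lower bounds.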
